A study of Mus musculus with 11 samples.

Results

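MHC class I antigen presentation was followed through 10 genes in acute myeloid leukaemia (AML) of mice, chosen by name: B2m, H2-K1, H2-D1, Tap1, Tap2, Tapbp, Psmb8, Psmb9, Nlrc5 and Erap1. All 10 were found by Ensembl identifier among the 55487 genes of the deposited table. RNA had been sequenced in bulk from 11 samples labelled AML, and the series' short design text speaks of HPCs from mice of the given genotypes. Every animal carried Flt3-ITD, an activating duplication within the cytokine receptor gene Flt3, and NHD13, a NUP98-HOXD13 fusion transgene, so both groups shared the leukaemia-driving alleles. They differed in Ifnar1, the gene of a subunit of the type I interferon receptor: 6 samples were Ifnar1 +/- and 5 were Ifnar1 -/-. The groups are written +/- and -/- below. The sources used here do not give the strain, the ages, the elements driving the transgene or the kind of Ifnar1 allele, and the labels do not say whether each sample is a mouse of its own. P-values therefore measure the spread between these samples, which may be technical.

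Class I molecules display peptides from the cell's own proteins to CD8 T cells and are read by natural killer cells. Proteins are cut by the proteasome, in which interferon-inducible subunits can replace constitutive ones. The transporter TAP carries the peptides into the endoplasmic reticulum, the aminopeptidase ERAP1 trims them there, and tapasin holds an empty class I molecule at TAP until a peptide binds. The molecule itself is a heavy chain, such as H2-K or H2-D in mice, bound to the invariant chain beta-2-microglobulin. NLRC5 is a transactivator that acts on class I genes through the X and Y boxes of their promoters, and interferons act on many of the same genes through interferon response elements.

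Promoter windows are shown for B2m, H2-K1, H2-D1 and Tap1 because these 4 genes carry the comparisons below: the light chain, both classical heavy chains, and the transporter gene that shares its promoter with Psmb9. Each window runs from 250 bases before to 50 bases after the RefSeq gene start on GRCm38.p6, 300 bases in all, 5′ to 3′ on the gene's strand. Capitals mark matches, on either strand, to an interferon response element in its class I form (TTTCACTTC) or its general form (TTTC, any 2 bases and TTTC again), to the NF-kB site known as enhancer A (the longest run of capitals in the H2-K1 and H2-D1 windows), to the core of the X2 box (TGACG) and to the Y box (CCAAT). B2m lies at chr2:122147437-122147736 on the plus strand, H2-K1 at chr17:34000298-34000597 on the minus strand, H2-D1 at chr17:35262844-35263143 on the plus strand and Tap1 at chr17:34187306-34187605 on the plus strand.
B2m: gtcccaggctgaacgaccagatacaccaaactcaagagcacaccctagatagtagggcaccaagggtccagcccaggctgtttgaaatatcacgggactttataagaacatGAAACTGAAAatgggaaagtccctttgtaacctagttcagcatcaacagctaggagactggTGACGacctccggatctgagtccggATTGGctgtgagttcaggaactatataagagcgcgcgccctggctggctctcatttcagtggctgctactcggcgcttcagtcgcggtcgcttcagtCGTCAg
H2-K1: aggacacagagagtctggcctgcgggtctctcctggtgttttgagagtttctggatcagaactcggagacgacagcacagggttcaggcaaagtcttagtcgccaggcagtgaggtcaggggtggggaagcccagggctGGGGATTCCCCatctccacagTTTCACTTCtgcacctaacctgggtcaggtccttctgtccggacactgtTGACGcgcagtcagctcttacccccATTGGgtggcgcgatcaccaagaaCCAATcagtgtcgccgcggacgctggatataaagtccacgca
H2-D1: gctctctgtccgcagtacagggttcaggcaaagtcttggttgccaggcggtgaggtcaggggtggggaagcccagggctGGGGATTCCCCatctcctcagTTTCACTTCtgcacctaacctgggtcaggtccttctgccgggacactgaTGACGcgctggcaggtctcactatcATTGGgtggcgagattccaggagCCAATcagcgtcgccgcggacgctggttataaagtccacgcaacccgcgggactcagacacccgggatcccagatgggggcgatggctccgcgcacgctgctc
Tap1: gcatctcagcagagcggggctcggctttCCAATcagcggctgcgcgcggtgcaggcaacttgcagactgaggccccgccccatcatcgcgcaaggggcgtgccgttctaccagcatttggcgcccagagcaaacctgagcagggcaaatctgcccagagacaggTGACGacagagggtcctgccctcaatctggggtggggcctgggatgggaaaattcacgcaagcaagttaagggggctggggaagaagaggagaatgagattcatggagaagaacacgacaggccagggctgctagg

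The H2-K1 and H2-D1 windows held the same motifs in the same order, an NF-kB site, the class I interferon element, an X2 core and a pair of Y boxes. They were identical at 206 of 228 aligned positions (90.4%). B2m held a general interferon element 139 bases before its start, an X2 core 78 bases before and a Y box 53 bases before, and another X2 core past the start. Tap1 held an X2 core 86 bases before its start and a Y box 222 bases before, and 275 of the 300 bases of its window were the opposite strand of the Psmb9 window. Of the 8 members with a window in the table, the class I interferon element was in 2, the general form in 2 (B2m and Erap1), the NF-kB site in 2, the X2 core in 5 and the Y box in 6. Among all 32851 promoter windows of this length, 0.505%, 3.44%, 0.0304%, 20.8% and 37.4% held them. None of these motifs overlapped another in the 4 windows shown. A match is a run of letters only and was not tested as a site. No window was in the table for Tap2 and Nlrc5.

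In GENCODE M21 on GRCm38 the 10 genes lie on 4 chromosomes. Of these, 7 are in or beside the major histocompatibility complex of chromosome 17: Tapbp (33915899 to 33929292), H2-K1 (33996017 to 34000347), Psmb9 (34181987 to 34187764), Tap1 (34187553 to 34197225), Psmb8 (34197721 to 34201454), Tap2 (34203527 to 34216321) and H2-D1 (35262730 to 35267499). B2m is on chromosome 2 (122147686 to 122153083), Nlrc5 on chromosome 8 (94434356 to 94527272) and Erap1 on chromosome 13 (74639568 to 74693201). Some of their reads could not be told from those of other genes. Of the 50-base stretches of one main transcript, counted on either strand, 8.79% in H2-K1 and 14.3% in H2-D1 also occurred in other genes, chiefly class I heavy chains. Psmb9 and Tap1 overlapped each other (12.5% and 6.47%), Erap1 overlapped Cast (14.0%), Tap2 and Psmb8 overlapped antisense transcripts (12.6% and 5.83%), and Tapbp shared 21.0%. B2m and Nlrc5 shared 0 such stretches. How reads were assigned to genes, and whether by strand, is not stated, so levels of the overlapping genes, and of H2-K1 and H2-D1 singly, are uncertain by an unknown amount.

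Library totals were 25583642 to 38728143 estimated counts. Levels are given as CPM, counts per 1e+06 counts after TMM scaling. Ifnar1 RNA itself was at 39.3 to 84.5 CPM in the +/- and 36.3 to 133 CPM in the -/- libraries. The ranges overlapped. Counts per gene carry no exon positions, so Ifnar1 RNA could not check the genotype labels. Ebf1, the gene of an early B-lineage transcription factor, divided the libraries. It reached 531 to 745 CPM in 5 libraries, called Ebf1-high below, which were numbers 3, 4 and 5 of the +/- and numbers 3 and 5 of the -/- group. The 6 others, 3 of each genotype and called Ebf1-low, stayed at 0.0309 to 8.72 CPM. The -/- library 2 stood apart by summed eosinophil markers (61936 CPM against at most 1601 elsewhere), neutrophil markers (29758 against at most 5378) and monocyte and macrophage markers (3915 against at most 630), and +/- library 6 by summed erythroid markers (134125 CPM against at most 15693). The sum of 10 T and NK cell markers was 9.15 to 295 CPM in +/- and 10.8 to 194 CPM in -/- libraries. The highest single levels were 289 CPM of Trac, 60.2 CPM of Klrb1c, 18.4 CPM of Cd3d, 9.31 CPM of Cd4 and 5.99 CPM of Cd3g, while Cd3e, Cd8a, Cd8b1 and Ncr1 had at most 0.357, 0.13, 0.242 and 0.227 CPM. In bulk RNA, fewer cells of a type and less RNA per cell cannot be told apart.

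Between genotypes none of the 10 genes changed detectably in level. Of 14521 genes tested with edgeR's quasi-likelihood test, 0 passed an adjusted p of 0.05 (0.00%), among them 0 of the 10. Every member had an adjusted p of 0.9998 (edgeR, Benjamini-Hochberg). At an unadjusted p under 0.05 there was 1 member, Erap1, lower in -/- AML, where 0.771% of all genes were lower by that measure and 1.22% higher. DESeq2 and limma voom also called 0 members, with 1 and 3 of 10 at an unadjusted p under 0.05, against 3.13% and 8.37% of all genes in those fits. Fitted values were lower for 5 members and higher for 5, with a median log2 fold change of -0.049, against -0.015 over all genes, of which 51.7% had lower values. For all 10 the ranges of the genotypes overlapped, and over all genes 0.124% had ranges that did not, 0.0758% with every +/- library above and 0.0482% with every -/- library above.

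**Figure D1:**
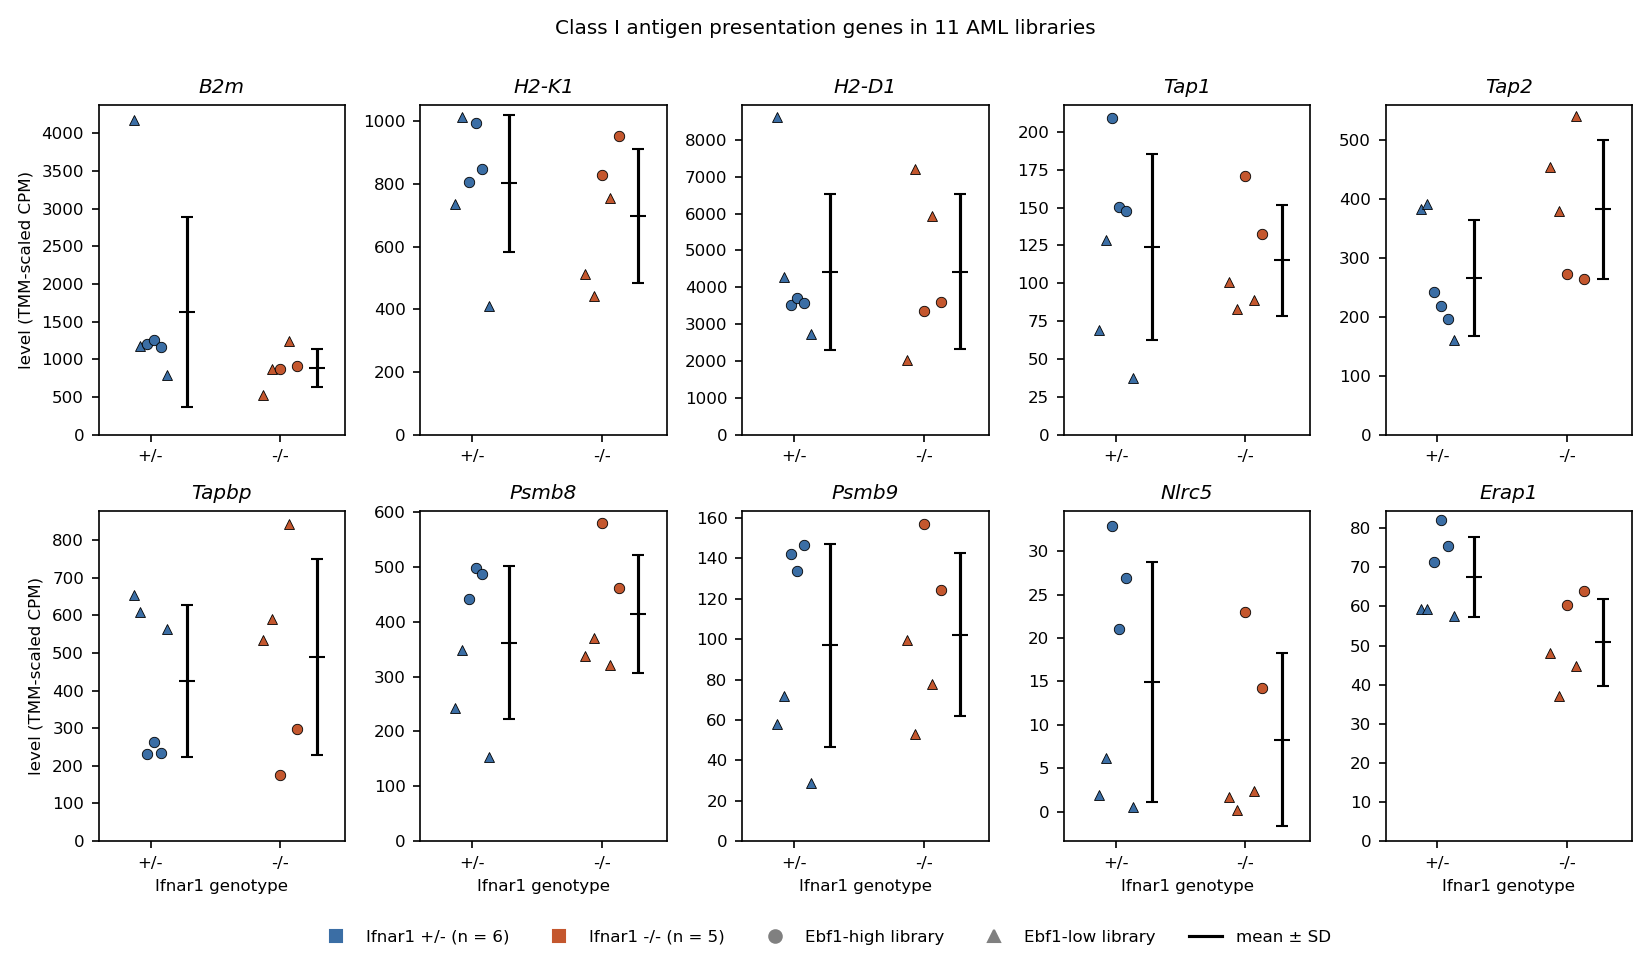
Level of each class I gene (TMM-scaled CPM, linear axis) in every library, by genotype. Circles are the 5 Ebf1-high and triangles the 6 Ebf1-low libraries, with the mean ± SD beside them (n = 6 and 5). The genotypes overlap for every gene, while circles and triangles separate for Nlrc5, Tap1, Psmb8, Psmb9, Erap1 and, in the other direction, Tapbp.

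B2m encodes beta-2-microglobulin, without which the heavy chain does not reach the cell surface in stable form. Its level in +/- AML ran from 796 CPM over a median of 1189.6 to 4182 CPM, and in -/- libraries 1 to 5 it was 524, 869, 876, 1251 and 915 CPM. The highest value belonged to +/- library 1, and -/- library 4 lay among the +/- libraries. The log2 fold change was -0.88 (SE 0.43, unadjusted p = 0.0653 in edgeR) and -0.33 without +/- library 1. Within the 5 Ebf1-high libraries the 3 +/- values, 1200.5, 1259 and 1161 CPM, lay above the 2 -/- values, as for 8.80% of all genes, with a fitted log2 difference of -0.43 (SE 0.14) and an edgeR adjusted p of 0.9999.

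The classical heavy chain genes H2-K1 and H2-D1 present peptides to CD8 T cells. H2-K1 was at 412 to 1013 CPM with a median of 827 in +/- AML, and at 513, 442, 827, 756 and 951 CPM in -/- libraries 1 to 5. It was lowest in the library with the most erythroid transcripts and next lowest in the one with the most eosinophil, neutrophil and monocyte transcripts. The part of those cells in these values was not tested. H2-D1 was at 2736 to 8611 CPM with a median of 3641 in +/- AML, and at 2028.5, 7215, 3356, 5934 and 3591 CPM in -/- AML. Its 3 highest values, in +/- library 1 and -/- libraries 2 and 4, were all in Ebf1-low libraries, and the 5 Ebf1-high libraries spanned only 3356 to 3706 CPM. Log2 fold changes were -0.20 (SE 0.27) for H2-K1 and 0.0053 (SE 0.37) for H2-D1. Summed into 1 feature they gave -0.024 (SE 0.33).

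Relative to the sum of H2-K1 and H2-D1, B2m was lower in every -/- than in every +/- library. The ratio of B2m counts to the sum of H2-K1 and H2-D1 counts was 0.447, 0.222, 0.277, 0.268, 0.262 and 0.253 in +/- libraries 1 to 6 and 0.206, 0.113, 0.209, 0.187 and 0.201 in -/- libraries 1 to 5. No -/- library reached the lowest +/- library. The mean was 0.288 ± 0.0802 (SD, n = 6) against 0.184 ± 0.0401 (SD, n = 5), a difference of -0.65 on the log2 scale (exact two-sided permutation p = 0.00433, adjusted p = 0.0216 over 5 ratios). That p is the smallest the exchange of 11 libraries between the genotypes can give. A ratio within a library does not depend on scaling between libraries, and it shows unequal change, not which gene changed.

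The 5 ratios were chosen with earlier results of these data known. With each of the 14521 tested genes in turn over the same sum, 2 (0.0138%) had every +/- library above every -/- library, B2m and the predicted gene Gm47586. The reverse order held for 2 genes (0.0138%). The difference in the B2m ratio was -0.51 without +/- library 1 and -0.48 without -/- library 2. With any 1 library left out the genotypes must stay apart. The adjusted exact permutation p, at most 0.0476, then follows from that separation and adds no support. H2-D1 made up most of the sum, with a mean of 4416 CPM against 754 CPM for H2-K1. Over H2-D1 alone the ratio, nearly the same one, again did not overlap (-0.66, exact permutation p = 0.00433). Over H2-K1 alone it did (-0.49, exact permutation p = 0.290), so the separation was lost with that denominator. Over 8 class I heavy chain genes the difference was -0.63 (exact permutation p = 0.0130), and the genotypes overlapped between 0.187 and 0.196.

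**Figure D2:**
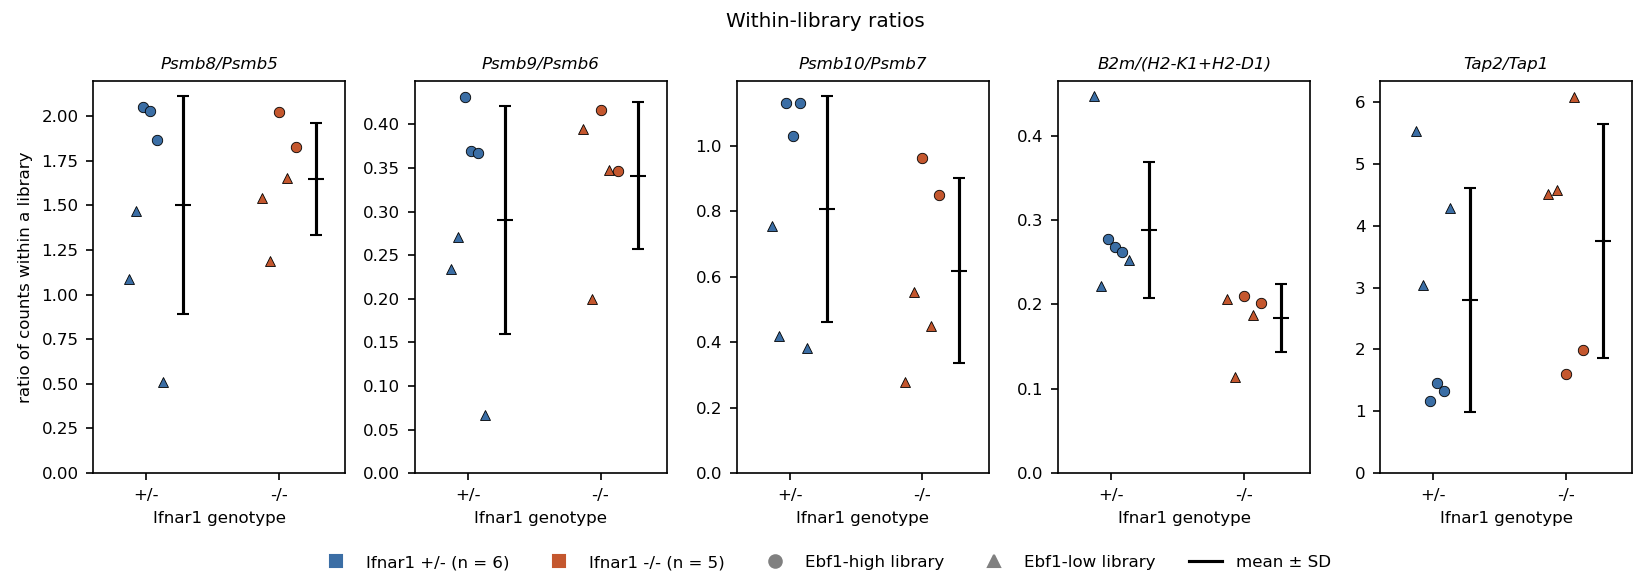
Ratios of counts within each library (linear axes from 0), by genotype, for 3 immunoproteasome subunits over their constitutive counterparts, B2m over H2-K1 plus H2-D1, and Tap2 over Tap1. Points are libraries, with the mean ± SD (n = 6 and 5); only the B2m ratio separates the genotypes, at 0.222 to 0.447 against 0.113 to 0.209.

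Tap1 and Tap2 encode the subunits of the peptide transporter. Tap1 was at 37.7 to 209 CPM with a median of 138 in +/- AML and at 101, 83.0, 171, 88.9 and 133 CPM in -/- AML, with a log2 fold change of -0.10 (SE 0.39). Tap2 was at 162 to 392 CPM with a median of 231 and at 455, 380.2, 273, 541 and 264 CPM, with a log2 fold change of 0.53 (SE 0.29, unadjusted p = 0.0989 in edgeR). Within the Ebf1-high libraries both -/- values of Tap2 were above the 3 +/- values, as for 7.45% of all genes. Tap1 and Tap2 were lowest in +/- library 6, the erythroid-rich one, and their highest libraries differed. Counts of Tap2 over Tap1 were 1.16 to 1.99 in the Ebf1-high and 3.04 to 6.08 in the Ebf1-low libraries, which did not overlap. Between genotypes the ratio was 2.80 ± 1.81 (SD, n = 6) and 3.75 ± 1.90 (SD, n = 5), with an exact permutation p of 0.368 (adjusted p = 0.597).

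Tapbp, the tapasin gene, went with the Ebf1-low libraries. It had 535 to 843 CPM in these 6 and 177 to 298.5 CPM in the 5 Ebf1-high libraries, so that the lowest of the former was 1.79 times the highest of the latter. By genotype it had 233 to 654 CPM with a median of 414 in +/- and 535, 592, 177, 843 and 298.5 CPM in -/- AML, a log2 fold change of 0.20 (SE 0.44). The sign turned with Ebf1 as a covariate (-0.27, SE 0.21). Erap1, the trimming aminopeptidase gene, was the steadiest member, with a coefficient of variation of 22.2% over the 11 libraries. It was at 57.6 to 82.1 CPM with a median of 65.3 in +/- AML and at 48.2, 37.05, 60.3, 44.9 and 63.9 CPM in -/- AML, a log2 fold change of -0.41 (SE 0.18, unadjusted p = 0.0485 in edgeR). On each side of the Ebf1 gap every -/- value was below every +/- value, an order noticed after the values were seen and shared by 1 of 10 members and 0.455% of all genes. The log2 fold changes of Erap1 were -0.30 (SE 0.14) among Ebf1-high and -0.42 (SE 0.23) among Ebf1-low libraries, and neither passed.

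Psmb8 and Psmb9 encode immunoproteasome subunits that take the places of the constitutive Psmb5 and Psmb6 products. Psmb8 was at 153 to 498 CPM with a median of 396 in +/- AML and at 338, 369.8, 580.2, 321 and 461 CPM in -/- AML. Psmb9 was at 28.8 to 147 CPM with a median of 103 and at 99.7, 52.9, 157, 77.7 and 124 CPM. Both were lowest in +/- library 6 and highest in -/- library 3. Log2 fold changes were 0.19 (SE 0.31) and 0.079 (SE 0.43). The third such subunit gene, Psmb10, had 144.5 to 168 CPM in Ebf1-high and 69.1 to 129 CPM in Ebf1-low libraries.

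Their constitutive counterparts Psmb5, Psmb6 and Psmb7 overlapped between the Ebf1 sides, Psmb5 with 215 to 287 CPM on the high and 194 to 311 CPM on the low side. Psmb8 over Psmb5 counts were 1.82 to 2.05 in Ebf1-high and 0.508 to 1.65 in Ebf1-low libraries. Psmb10 over Psmb7 counts were 0.851 to 1.13 and 0.279 to 0.754, with Psmb7 itself ranging from 102 to 396 CPM, while those of Psmb9 over Psmb6 overlapped (0.346 to 0.431 and 0.0668 to 0.395). By genotype the 3 ratios differed by 0.25, 0.40 and -0.38 on the log2 scale for Psmb8, Psmb9 and Psmb10. Their exact permutation p-values were 0.597, 0.519 and 0.394, each 0.597 after adjustment over 5 ratios. Without +/- library 6 the differences were -0.029, 0.019 and -0.57, and without -/- library 1 that of Psmb10 was -0.13.

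Nlrc5 varied most. It had 1.93, 6.22, 32.8, 21.0, 26.9 and 0.487 CPM in +/- libraries 1 to 6 and 1.64, 0.206, 22.95, 2.36 and 14.3 CPM in -/- libraries 1 to 5. All 5 Ebf1-high libraries were above all 6 Ebf1-low ones, 14.3 to 32.8 against 0.206 to 6.22 CPM, and the lowest of the former was 2.30 times the highest of the latter. Counts ran from 4 in -/- library 2, a level of limited precision, to 1114. The genotype difference was -0.84 on the log2 scale (SE 1.18), with a sign that turned to 0.27 (SE 0.65) with Ebf1 as a covariate. It was -0.53 (SE 0.31) among Ebf1-high and -0.998 (SE 1.16) among Ebf1-low libraries.

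Read along the Ebf1 level, the genes fell into sets. For 5 of 10 members every Ebf1-high library lay above every Ebf1-low library, namely Nlrc5, Tap1, Psmb8, Psmb9 and Erap1, where 12.1% of all tested genes did so. For 1 of 10, Tapbp, the order was the reverse, as for 1307 of the 14521 tested genes, and in either direction it was 6 of 10 against 21.1%. B2m, H2-K1, H2-D1 and Tap2 overlapped. The margins were narrow for Tap1 and Erap1, where the lowest Ebf1-high library exceeded the highest Ebf1-low one by factors of 1.03 and 1.02, and wider for Psmb8 and Psmb9 (1.20 and 1.25). These sides were defined from RNA measured in the same libraries and are not groups of the study, so no test was made between them. The summed B-lineage markers were 5735 to 9057 CPM on the high side and 11.6 to 121 CPM on the low side. Summed monocyte and macrophage markers were 23.4 to 203 and 78.5 to 3915 CPM, and erythroid ones 902 to 3327 and 3072 to 134125 CPM. Their part in the class I levels was not tested.

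**Figure D3:**
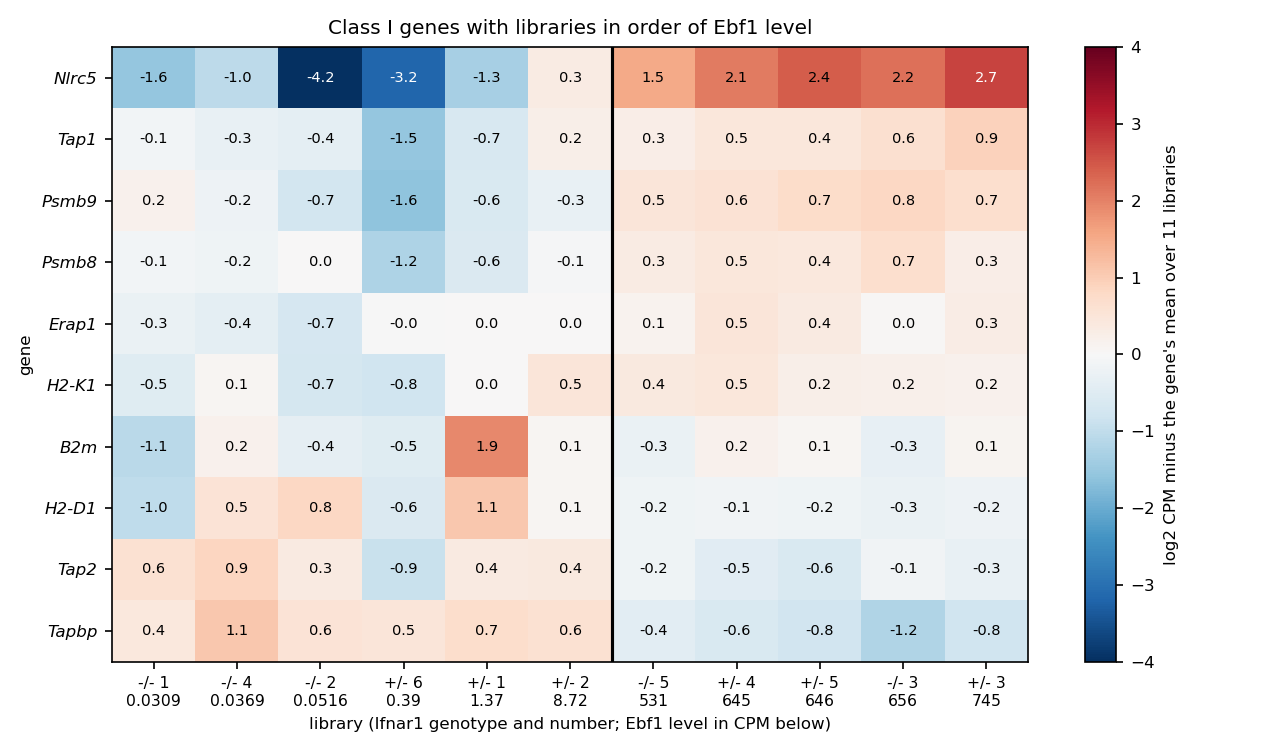
Log2 CPM of each class I gene minus its mean over 11 libraries (colour and printed value), with libraries in rising order of Ebf1 level (CPM under each name) and a line at the gap between 8.72 and 531 CPM. The colours end at 4 in either direction. Nlrc5 runs from -4.2 to 2.7, Tap1, Psmb9 and Psmb8 follow with smaller differences, and Tapbp is low on the right.

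Adding Ebf1 level to the genotype fit moved several of the fitted values and gave no call. With log2 Ebf1 as a covariate the log2 fold changes were 0.52 (SE 0.21, unadjusted p = 0.0305) for Psmb8, 0.59 (SE 0.29) for Psmb9 and 0.33 (SE 0.29) for Tap1, all higher in -/- AML, and -0.94 (SE 0.43) for B2m and -0.28 (SE 0.13) for Erap1. The edgeR adjusted p was 0.9994 for each. Among the 6 Ebf1-low libraries Psmb8, Psmb9 and Tap1 had 0.49, 0.56 and 0.23, and among the 5 Ebf1-high libraries 0.13, -0.0020 and -0.15. The difference between the sides was not tested.

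**Figure D4:**
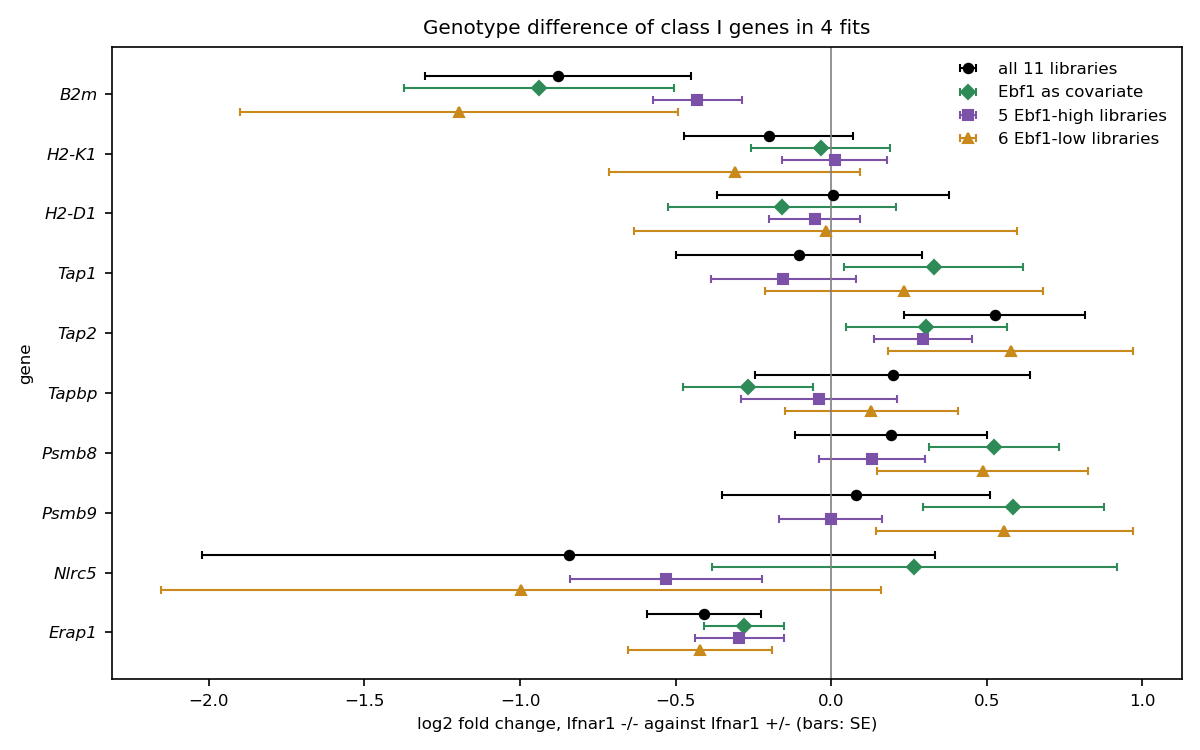
Log2 fold change of each class I gene, -/- against +/-, in edgeR fits of all 11 libraries, of all with log2 Ebf1 as a covariate, of the 5 Ebf1-high and of the 6 Ebf1-low libraries (bars are SE). B2m and Erap1 lie below 0 and Tap2 and Psmb8 above 0 in all 4 fits, and no value passed the adjusted threshold.

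Levels of different genes were compared per kilobase of main transcript. The order was H2-D1 (2101 CPM per kilobase, SD 952 over 11 libraries), B2m (1502, SD 1147), H2-K1 (465.9, SD 131), Psmb8 (237, SD 75.7), Tapbp (157, SD 76.1), Tap2 (92.7, SD 34.6), Psmb9 (73.5, SD 32.5), Tap1 (40.6, SD 16.8), Erap1 (10.6, SD 2.36) and Nlrc5 (1.57, SD 1.60). Among neighbours in this order the mean ± SD intervals were apart for H2-K1 and Psmb8, Tap1 and Erap1, and Erap1 and Nlrc5. For all other pairs they overlapped. All genes were measured in the same 11 libraries, so overlap does not show that neighbours had like levels within a library. The transactivator gene Nlrc5 had the lowest mean level and the heavy chain gene H2-D1 the highest. In +/- library 1 B2m was above H2-D1, at 4863 against 4097 CPM per kilobase. Lengths are those of 1 transcript per gene, and an even coverage along it was not checked.

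No further gene of loading and peptide supply passed between genotypes. Of 12 further genes, among them the chaperones Canx, Calr and Pdia3 that fold and load class I molecules, 0 passed, 7 had lower and 5 higher values, and the median log2 fold change was -0.037. Canx had 613 ± 123 CPM (SD, n = 6) in +/- and 511 ± 83.6 CPM (SD, n = 5) in -/- AML, and Pdia3 857 ± 157 and 756 ± 150.1 CPM. Npepps, a cytosolic aminopeptidase gene, had 27.3 ± 5.58 and 48.6 ± 61.2 CPM, its highest value of 158 CPM being in -/- library 2. The others of its genotype ran from 16.0 to 26.9 CPM.

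Other class I and class I-like heavy chains gave no call either, and several followed the Ebf1 order. Of 17 listed, 14 could be tested and 0 passed, with 11 lower and 3 higher and a median log2 fold change of -0.44, against -0.015 over all genes. H2-T23, the Qa-1 gene whose product is a ligand of NK-cell receptors, had 804 to 1679 CPM in Ebf1-low and 153 to 316 CPM in Ebf1-high libraries. Its genotype means were 692 ± 595 and 685 ± 434 CPM (log2 fold change -0.015, SE 0.69). Of the 14 tested, 8 overlapped between the Ebf1 sides. In every Ebf1-high library 4 were higher, against 12.1% of all tested genes, and in every Ebf1-low one 2, against 1307 of 14521. Like H2-T23, H2-T24 was higher in every Ebf1-low library. H2-Q4, H2-T10, H2-M3 and Cd1d1, which encodes the lipid-presenting CD1d, were higher in every Ebf1-high one. Apart from H2-T23, these genes were named for that order after their values were seen. H2-T22 had 80.5 ± 18.0 CPM (SD, n = 6) and 63.3 ± 11.9 CPM (SD, n = 5).

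H2-Q6 and H2-Q7, which encode Qa-2 molecules, did not follow the Ebf1 order. H2-Q7 was at 9.75, 33.95, 145, 98.3, 125 and 0.974 CPM in +/- libraries 1 to 6 and at 0.432, 0.619, 2.22, 20.8 and 82.1 CPM in -/- libraries 1 to 5. The -/- library 3, with 656 CPM of Ebf1 and 22.95 CPM of Nlrc5, had 2.22 CPM of H2-Q7 against 82.1 to 145 CPM in the other 4 Ebf1-high libraries. H2-Q6 showed the same, with 1.75 CPM there and 49.0 to 185 CPM in those 4. Their log2 fold changes were -1.56 (SE 1.31) and -1.69 (SE 1.44) for H2-Q6 and H2-Q7. These genes are near-identical, so reads can be split between them.

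Regulators of class I promoters did not differ detectably by genotype. Of 15 listed genes, among them those of RFX, CREB, NF-Y, IRF and NF-kB proteins, 0 passed, 7 were lower and 8 higher, with a median log2 fold change of 0.072. Irf1, an activator of class I promoters, had 42.9 ± 9.92 CPM (SD, n = 6) in +/- and 53.9 ± 13.8 CPM (SD, n = 5) in -/- AML. Rfxank, which encodes a subunit of the RFX complex that binds the X box, had 27.9 ± 2.89 and 38.3 ± 12.2 CPM (log2 fold change 0.46, SE 0.21). Of the 15, 2 were higher in every Ebf1-high library and 1, Nfkb1, in every Ebf1-low library, while 12 overlapped. Over all tested genes 21.1% did not overlap, in either direction. Nfkb1 was at 239.5 to 411 CPM in Ebf1-low and 60.6 to 124 CPM in Ebf1-high libraries.

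Genes whose products lower class I levels gave no call either. Of 8 listed, 7 could be tested, 0 passed, and 3 were lower and 4 higher (median 0.080). Ezh2, the catalytic subunit of the Polycomb complex PRC2 that can silence class I genes, had 54.1 to 137 CPM in Ebf1-high and 14.9 to 43.5 CPM in Ebf1-low libraries. Its partner Eed had 58.8 to 73.2 and 30.2 to 57.0 CPM. Tmem127, whose product acts in removal of class I molecules from the surface, had 47.0 to 63.2 and 76.2 to 121 CPM. Of the 7 tested, 2 were higher in every Ebf1-high library, 2 in every Ebf1-low one, and 3 overlapped, among them the PRC2 gene Suz12. Ezh2 RNA was higher on the same side as Nlrc5 RNA, as for 12.1% of all tested genes.

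The interferon response genes listed beside the class I set had mostly lower fitted values in -/- AML, and 0 passed. Of 14 type I response genes 13 could be tested, of which 12 had lower and 1 a higher value, with a median log2 fold change of -1.49, and 6 were lower at an unadjusted p under 0.05. Of 12 interferon gamma response genes 10 could be tested, with 9 lower, a median of -0.70, and 2 lower at an unadjusted p under 0.05. Over all tested genes 51.7% had lower values, and 0.771% were lower at an unadjusted p under 0.05 in edgeR. Ifit1, which encodes an antiviral RNA-binding protein, averaged 3.97 ± 3.12 CPM (SD, n = 6) and 0.436 ± 0.298 CPM (SD, n = 5), a fitted difference of -3.17 on the log2 scale (SE 0.83) with an edgeR adjusted p of 0.9998. Irgm1, an interferon-inducible GTPase gene, was higher in every +/- than in every -/- library, at 60.4 to 92.7 CPM against 15.8 to 57.7 CPM, as for 0.0758% of all genes. These lists were chosen with their direction in these samples known, so their counts are not independent evidence of it, and no test compared them with the class I list.

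Genes with profiles most like those of 3 members were named by the root mean square difference of log2 CPM, after centring each gene, over the 11 libraries. Nearest to Nlrc5 were Zfp428 (0.54), Mapk11 (0.55), Bmf (0.61), Dclk2 (0.62) and Epb41l2 (0.62), against a spread of Nlrc5 itself of 2.29, while its nearest fellow member Psmb9 was at 1.68. For B2m they were Ldah (0.31), Pacs2 (0.37), Inpp5d (0.38), Abhd12 (0.38) and Fam204a (0.38), all 5 highest in +/- library 1, and H2-D1 was the nearest member at 0.48. For H2-K1 they were Zbed5 (0.19), Tinf2 (0.20), Mbtps1 (0.22), Slc1a5 (0.23) and Cyb5b (0.23), with Erap1 the nearest member at 0.33. The values describe these libraries, which share their split by Ebf1 level.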

How the data were processed

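RNA sequencing of 11 AML samples was analysed from the deposited table of estimated counts per gene. Per the labels' protocols, a Qiagen micro kit was used for RNA and a Clontech kit, given as SMRTr, for libraries. Demultiplexing and alignment tools named in the submitters' processing notes are bcl2fastq and DRAGEN, and no source used here gives their versions, the genome build or the annotation. The authors' estimated counts were not scaled between samples and were rounded here. Of 55774 rows 287 identical copies were dropped. Symbols came from a reference table by Ensembl identifier (55141 of 55487 genes).

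Counts were tested with edgeR 4.0.16 in R 4.3.3 (filterByExpr, 14521 genes; TMM factors; glmQLFit with robust=TRUE), two-sided, with Benjamini-Hochberg adjustment over all genes at 0.05. The code was tested on simulated data. SE is the absolute log2 fold change over the square root of F. Ratios had 1 count added to each term, and exact permutation tests used scipy 1.17.1. Libraries were divided at the largest gap in log2(CPM + 1) of Ebf1. Sequences were aligned with Biopython 1.88.

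Members, gene lists, ratios and tests were chosen with earlier results of these data known. Named genes are the members, those in the ratios, up to 4 genes of each further list with the smallest p and the 2 highest in level, and the 5 nearest profiles of B2m, H2-K1 and Nlrc5. A gene that the rule names among the promoter regulators is not reported here. Alternatives were DESeq2 1.42.0, limma voom (limma 3.58.1), other scalings, filters, thresholds and pseudocounts, Ebf1 as a covariate or division, each library left out and the replicate number as a block. Added after seeing the data were the fit without +/- library 1 and -/- library 2 together and other denominators of the B2m ratio.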

Additional observations from a re-analysis of the deposited data

Results flagged for a closer look

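The +/- library 1 stood apart from the other libraries of its genotype in 3 measures. Its B2m level was 4182 CPM, against 796 to 1259 CPM in the other 5, and its H2-D1 level was 8611 CPM, against 2736 to 4294 CPM. Its ratio of B2m to H2-K1 plus H2-D1 counts was 0.447, against 0.222 to 0.277. The -/- library 2 had the lowest such ratio, 0.113, against 0.187 to 0.209 in the other 4, and it was the library with the most eosinophil, neutrophil and monocyte transcripts. Each value was farther from its neighbour than Dixon's 95% criterion allows. Of 30 groups of values screened, chance flags about 1 in 20. The ratio is formed from the counts of B2m, H2-D1 and H2-K1, so its flags are not independent of those genes' flags.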

How the results depend on the processing

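Of the 10 members, 0 passed the threshold in the fit reported or in any of its 23 alternatives, and B2m, Erap1 and Tap2 kept their sign in all of them (-1.20 to -0.32, -0.51 to -0.28 and 0.29 to 0.70). The count of all genes called was 3 in DESeq2 and 0 elsewhere. The sign turned in at least 1 alternative for the other 7 members. H2-D1 was -0.17 in limma voom, -0.018 with upper-quartile factors, -0.025 without a filter, -0.16 with Ebf1 as a covariate, -0.052 in the Ebf1-high and -0.018 in the Ebf1-low libraries, and -0.024 summed with H2-K1. In limma voom Psmb8 was -0.11 and Psmb9 -0.17. With Ebf1 as a covariate Tap1 was 0.33, Tapbp -0.27 and Nlrc5 0.27; in the Ebf1-high libraries H2-K1 was 0.011, Tapbp -0.039 and Psmb9 -0.0020, and in the Ebf1-low libraries Tap1 was 0.23. With each library left out in turn H2-D1 ran from -0.23 to 0.31, Tap1 from -0.29 to 0.11, Psmb9 from -0.13 to 0.25, Tapbp from -0.093 to 0.41 and the Psmb8 ratio from -0.029 to 0.37. Nlrc5 was -1.97 in limma voom and -1.66 without -/- library 3. With the replicate number as a replicate block, H2-D1 was -0.098, Psmb9 -0.11 and the Psmb8 ratio -0.029, and the B2m ratio was -0.68 with an exact permutation p of 0.0625, the smallest that 5 pairs allow. The B2m ratio was -0.49 over H2-K1 alone. The causes were not tested. Same-numbered samples of the genotypes did not deviate together in every pair (r from -0.55 to 0.58 over the 5 numbers, and 1 of 5 correlated best with its own number). The labels state no pairing. With the libraries split by Ebf1 level, these correlations cannot decide whether the numbers pair samples. Standard errors of the members were 0.18 to 1.18 on the log2 scale, so the lack of calls does not show equal levels.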
